A study of Mus musculus with 27 samples.

Results

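The genes described are 9 members of the complement system, *C1qa*, *C1qb*, *C1qc*, *C1ra*, *C1s1*, *C4b*, *C3*, *Serping1* and *C3ar1*. They were chosen by gene name from the 54532 genes of a bulk RNA-seq table, and all 9 were found and passed the filter on low values, which left 14932 genes to test. The table holds mouse embryonic fibroblasts (MEFs) on days 0, 2 and 4 of reprogramming to induced neurons (iNs). The cells were WT, Per1-/- or labelled Per2-/-, 3 replicates for every genotype on every day, 27 libraries and 9 groups in all. The titles call these biological replicates, without saying what was replicated. The labels give every group, day 0 included, as transduced with a set of neuronal transcription factor genes, and by the methods day 0 was the time when doxycycline and a serum-free neuronal medium were given. The MEFs came from whole embryos without head and heart, pooled over several embryos per dish and passaged once, and the study describes macrophages as a contaminant of such cultures. The *Per1* and *Per2* alleles are germline mutations and were therefore carried by every cell type in the dish.

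Complement is a set of proteins that tag targets for uptake and recruit phagocytes. In the classical pathway C1q, built from the A, B and C chains, recognises the target, the proteases C1r and C1s bound to it then cleave C4 and C2, and the resulting convertase cleaves C3. C1 inhibitor, encoded by *Serping1*, inactivates C1r and C1s, and the C3a fragment released from C3 is read by the receptor C3aR, encoded by *C3ar1*. Macrophages and microglia are the main source of C1q, whereas C1r, C1s, C4, C3 and C1 inhibitor are made mostly by hepatocytes in the body and also by fibroblasts and other stromal cells.

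The C1q genes lie side by side on the minus strand of chromosome 4 (GRCm38), *C1qb* at chr4:136880129-136886187, *C1qc* at chr4:136889804-136893065 and *C1qa* at chr4:136895917-136898803, within 18675 bases. *C1ra* (chr6:124512405-124523443, plus strand) and *C1s1* (chr6:124530345-124542359, minus strand) face each other across 6901 bases. The remaining genes are on the minus strand, *C3ar1* at chr6:122847138-122856161, *Serping1* at chr2:84765387-84775444, *C4b* at chr17:34728380-34743882 and *C3* at chr17:57203970-57228136. The bases upstream of the RefSeq start sites (GRCm38.p6, at most 250, without those inside the gene as the table places it) are shown 5′ to 3′ for a pair of C1q chains and for a pair of the other genes. The printed genes are those whose window held a match to a motif named below. Capitals mark the match to the motif named after each group.
C1qb, chr4:136886201-136886450, minus strand: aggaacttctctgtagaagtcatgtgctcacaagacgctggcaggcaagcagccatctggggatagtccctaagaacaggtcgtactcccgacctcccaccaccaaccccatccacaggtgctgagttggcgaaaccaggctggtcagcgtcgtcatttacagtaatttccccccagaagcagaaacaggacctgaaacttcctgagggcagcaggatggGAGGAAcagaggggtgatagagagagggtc
C1qc, chr4:136893066-136893164, minus strand: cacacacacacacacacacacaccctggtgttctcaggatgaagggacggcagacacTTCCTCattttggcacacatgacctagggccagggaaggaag
C1s1, chr6:124542360-124542609, minus strand: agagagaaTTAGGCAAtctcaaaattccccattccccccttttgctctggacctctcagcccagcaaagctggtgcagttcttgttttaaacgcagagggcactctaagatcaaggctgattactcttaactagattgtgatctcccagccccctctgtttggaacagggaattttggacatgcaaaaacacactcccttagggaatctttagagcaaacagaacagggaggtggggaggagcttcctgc
C3, chr17:57228137-57228386, minus strand: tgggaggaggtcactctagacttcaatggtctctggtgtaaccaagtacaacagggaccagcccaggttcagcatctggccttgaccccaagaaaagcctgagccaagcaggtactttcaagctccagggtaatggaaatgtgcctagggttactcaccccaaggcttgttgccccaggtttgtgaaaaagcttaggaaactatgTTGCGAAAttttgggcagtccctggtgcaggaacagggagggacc
A promoter sequence was matched for 6 of the 9 genes, the 4 printed here, *C1ra* and *C3ar1*. The windows of *C1ra* and *C3ar1* held no match to any of the motifs. By likeness across libraries *C3ar1* nevertheless fell with the C1q chains and *C1ra* with *C1s1*, so the matches did not follow these sets throughout. On either strand the ETS-type core GAGGAA, the kind bound by the macrophage factor PU.1, was in the full window of 2 of these 6 genes, *C1qb* and *C1qc* (capitals), and in 23.3% of all 32851 promoter windows of that length. The C/EBP-type motif TTGCNNAA was in 2 of 6, *C1s1* (1 of its 2 start sites) and *C3* (capitals), and in 9.56% of all windows. The STAT-type motif TTCNNNGAA and the E-box CACGTG, which the clock factors CLOCK and BMAL1 bind, were in 0 of 6 windows, against 7.02% and 6.02% of all windows. The motifs do not overlap one another in these windows, and a match is only a description of the letters.

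Values are the deposited FPKM, that is fragments divided by exon length and by a library factor, so that levels can be compared between genes. Libraries held 15815013 to 24264097 fragments on genes, and the number of fragments behind each value could be recovered from it. Between 71 and 5720 fragments stood behind each C1q chain value, against 6 to 1282 for *C4b* and 21 to 1645 for *C3*, the least expressed of the 9. On day 0 *Per1* was at 4.11 ± 0.866 FPKM in Per1-/- cells and 5.78 ± 0.479 FPKM in WT cells (SD, n = 3), a log2 difference of -0.50 that did not pass the test (adjusted p = 0.771). On days 2 and 4 its difference was -0.19 and -0.21 (adjusted p = 0.999 and 0.933). Libraries with the Per2-/- label held more *Per2* transcript than WT libraries, 1.93 ± 0.068 against 0.894 ± 0.0709 FPKM on day 0 (log2 difference 1.03, adjusted p = 0.00114), and are therefore named by their label. The *Per2* difference was 0.82 on day 2 (adjusted p = 0.0191) and 0.68 on day 4 (adjusted p = 0.223). Which exons the alleles lack was not examined here, so these transcript levels check the labels only in part. By western blotting, the study reports that PER1 protein was lost in Per1-/- MEFs and PER2 protein in Per2-/- MEFs. The table holds no protein values. All 20 macrophage markers listed were expressed (summed level 145 to 2128 FPKM over the libraries), as were all 15 fibroblast markers (2766 to 6422 FPKM). Hepatocyte markers, the list for the body's main source of most complement, summed to 0.701 to 3.00 FPKM for 10 genes, with *Alb* at no more than 0.297 FPKM and *Serpina1a* at 0 in every library. Mast cell and neutrophil markers summed to at most 1.02 FPKM for 7 genes and endothelial markers to at most 11 FPKM for 5 genes. In bulk RNA, fewer cells of a type and less RNA per cell cannot be told apart.

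By mean level over the 27 libraries the 9 genes spanned from 79.0 FPKM for *C1qb* to 1.87 FPKM for *C3*. Between these came *C1qa* (42.9), *C1qc* (30.6), *Serping1* (19.0), *C1s1* (14), *C1ra* (11.4), *C3ar1* (7.97) and *C4b* (2.51 FPKM). WT cells on day 4 had the same order, from *C1qb* at 103 ± 19.4, *C1qa* at 48.5 ± 5.21 and *C1qc* at 37.4 ± 9.41 FPKM down to *C3* at 1.74 ± 0.429 FPKM (SD, n = 3). In these 3 libraries the ranges of *C1qa* and *C1qc*, of *C1qc* and *Serping1* and of *Serping1* and *C1s1* overlapped, while *C1qb* stood clear of *C1qa*. *C1qb* ranked 507th of all genes in the table by mean FPKM, so a recognition molecule of innate immunity was among the more abundant transcripts of these fibroblast cultures. Near-identical neighbours that could share reads with the members were low, with *C4a* at no more than 0.386, *C1rb* at no more than 0.736 and *C1s2* at no more than 0.335 FPKM in any library. How the counting split reads between these copies is uncertain, most of all for *C4b* on day 0.

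**Figure D1:**
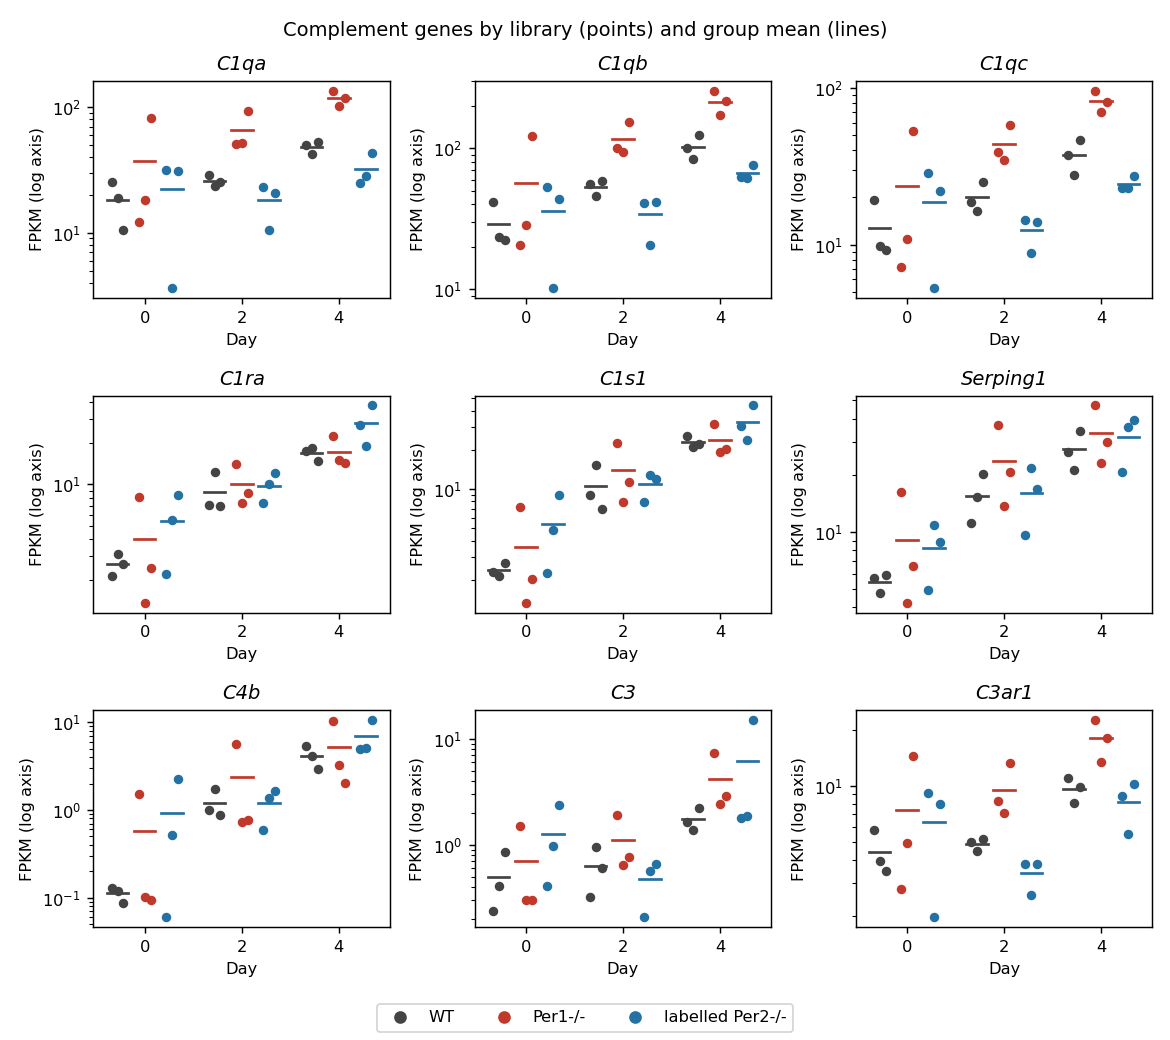
FPKM (log axis) of the 9 complement genes in each of the 27 libraries by day and genotype, with points for libraries and lines for group means of 3. On days 2 and 4 the Per1-/- libraries lie above all others for *C1qa*, *C1qb*, *C1qc* and *C3ar1*, and overlap with them for *C1ra*, *C1s1*, *Serping1* and *C4b*.

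The C1q chains were already well expressed on day 0, and by day 4 all 3 had risen in Per1-/- cells and 2 of 3 in WT cells. In replicates 1, 2 and 3 of WT cells, the *C1qb* level began at 41.9, 23.5 and 22.4 FPKM, was 55.4, 45.9 and 59.0 FPKM by day 2, and reached 101, 84.7 and 123 FPKM by day 4. No WT library of a later day overlapped with one of an earlier day. Per1-/- cells had 20.7, 28.6 and 122 FPKM at the start, 100.2, 94.6 and 154 by day 2 and 256, 172 and 217 by day 4, so that replicate 3 of day 0 reached the level of day 2. Libraries with the Per2-/- label had 53.5, 10.2 and 43.7 FPKM at the start, 41.1, 20.5 and 41.8 by day 2 and 63.1, 61.9 and 75.7 by day 4. Their days 0 and 2 overlapped, and replicate 2 of day 0 was the lowest of all 27 libraries for each of the 3 chains.

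From day 0 to day 4 *C1qb* rose 3.61-fold in WT cells (log2 1.85, SE 0.538, adjusted p = 0.00504) and 5.08-fold in Per1-/- cells (log2 2.35, adjusted p = 0.000739). *C1qc* rose by log2 1.60 (adjusted p = 0.0175) in WT cells and 2.34 (adjusted p = 0.00119) in Per1-/- cells. *C1qa* rose by 2.16 (adjusted p = 0.00658) in Per1-/- cells, while its WT value of 1.48 had an adjusted p of 0.052. The WT call of *C1qc* was lost without replicate 2 or 3 of day 0 or replicate 3 of day 4. Under the Per2-/- label no chain passed the test, with log2 values of 1.21 for *C1qb* (95% interval 0.09 to 2.33, adjusted p = 0.0582), 1.02 for *C1qa* (-0.33 to 2.37) and 0.70 for *C1qc* (-0.48 to 1.87). By day 2 only *C1qb* (log2 1.44) and *C1qc* (1.41) in Per1-/- cells had passed, with adjusted p of 0.0256 and 0.0364. Both calls were lost with no filter, with the compared groups alone, or without Per1-/- replicate 1 or 2 of day 0 or replicate 3 of day 2, and that of *C1qc* also without replicate 1 of day 2. The macrophage markers moved with the chains over the same days. By day 4, 17 of 20 rose in WT cells, 19 of 20 in Per1-/- cells and 11 of 20 under the Per2-/- label. Of all tested genes 22.9%, 22.6% and 21.6% were called higher. The part of macrophage content in the C1q values was not tested.

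The classical proteases started low and rose in all 3 genotypes. *C1s1* was at 2.30, 2.15 and 2.69 FPKM in WT cells on day 0, then at 8.90, 15.4 and 7.04 by day 2 and at 25.5, 20.9 and 22.2 on day 4, with no overlap between days. Per1-/- cells had 7.30, 1.33 and 2.03 FPKM at the start, 22.5, 7.93 and 11.2 by day 2 and 31.6, 19.3 and 20.4 by day 4. Libraries with the Per2-/- label had 2.25, 4.85 and 9.0, then 7.97, 12.7 and 11.8, then 30.8, 24 and 43.9 FPKM. Replicate 1 of Per1-/- cells was the highest of its group on each day. From day 0 to day 4 *C1s1* rose 9.28-fold in WT cells (log2 3.21, SE 0.503, adjusted p = 1.2e-05), 8.24-fold in Per1-/- cells (adjusted p = 2.38e-05) and 6.76-fold under the Per2-/- label (adjusted p = 7.98e-05). *C1ra*, which encodes the protease that activates C1s, rose 6.33-, 5.42- and 5.61-fold in the same order (adjusted p = 6.41e-05, 0.000168 and 0.000148). Its day 4 means were 17.0 ± 1.89, 17.3 ± 4.57 and 27.8 ± 9.32 FPKM (SD, n = 3). By day 2 both genes had risen in WT cells (log2 2.02 for *C1s1*, 1.67 for *C1ra*) and in Per1-/- cells (2.17 and 1.63). The *C1ra* call in Per1-/- cells was lost with the compared groups alone or without Per1-/- day 0 replicate 2. There the highest *C1ra* library of day 0, at 8.13 FPKM, lay above the lowest of day 2, at 7.29. Under the Per2-/- label, where day 0 reached 9.0 FPKM for *C1s1*, log2 values of 1.18 and 1.02 did not pass (adjusted p = 0.0515 and 0.0781).

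*Serping1*, whose product blocks both proteases, rose with them. WT libraries had 5.70, 4.72 and 5.94 FPKM at the start, 11.1, 15.4 and 20.3 by day 2 and 26.6, 21.2 and 34.5 by day 4. Per1-/- libraries had 16.3, 4.21 and 6.58, then 37.1, 13.8 and 20.9, then 47.0, 23.2 and 30.0 FPKM, again with replicate 1 highest on each day. Under the Per2-/- label they were 4.91, 10.9 and 8.82, then 9.69, 21.8 and 16.9, then 20.7, 36.1 and 39.4 FPKM, with days 0 and 2 overlapping. The *Serping1* call by day 2 in Per1-/- cells was lost with the compared groups alone or without Per1-/- day 0 replicate 2. By day 4 the rise was 4.89-fold in WT cells, 4.12-fold in Per1-/- cells and 3.93-fold under the Per2-/- label (log2 2.29, 2.04 and 1.97, SE 0.442, adjusted p = 0.000134, 0.00043 and 0.000649). As *C1s1* rose more steeply, the ratio of *Serping1* to *C1s1* went from 2.29 ± 0.158 on day 0 to 1.20 ± 0.305 on day 4 in WT cells (SD, n = 3), and from 2.88 ± 0.563 to 1.39 ± 0.161 in Per1-/- cells. Under the Per2-/- label it went from 1.80 ± 0.714 to 1.03 ± 0.432, with overlapping ranges.

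The substrates of the cascade were the least abundant members. *C4b*, encoding C4, was at 0.129, 0.119 and 0.0875 FPKM in WT cells on day 0, which was 10 to 14 fragments per library. It was at 0.990, 1.74 and 0.868 on day 2 and at 5.31, 4.12 and 2.93 on day 4, so each day lay wholly above the one before. Per1-/- cells split on day 0 into replicate 1 at 1.52 and the others at 0.103 and 0.0951 FPKM, and replicate 1 stayed above them on day 2 (5.69 against 0.722 and 0.759) and day 4 (10.3 against 3.27 and 2.04). Under the Per2-/- label *C4b* was at 0.0598, 0.512 and 2.23, then 0.594, 1.37 and 1.64, then 5.01, 5.08 and 10.6 FPKM, so that day 0 spread over the whole range of day 2. By day 4 *C4b* had risen by log2 4.28 in WT cells, 3.40 in Per1-/- cells and 3.42 under the Per2-/- label (SE 0.885, adjusted p = 0.000268, 0.00224 and 0.00223). At 4.28, the WT value was the largest of the 27 day 4 against day 0 values of the 9 genes, and the 0.1 added to FPKM makes it an understatement at these low levels. By day 2 *C4b* had risen in WT cells (log2 2.56, adjusted p = 0.0167), a call lost without WT day 2 replicate 2, with a pseudocount of 1 or with voom weights on the recovered fragments, while 2.00 in Per1-/- cells did not pass (adjusted p = 0.0571).

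*C3*, the hub on which all complement pathways converge, passed the test by day 4 and not by day 2. WT libraries had 0.235, 0.404 and 0.853 FPKM at the start, 0.323, 0.956 and 0.600 by day 2 and 1.63, 1.37 and 2.21 by day 4, with days 0 and 2 overlapping. Per1-/- libraries had 1.52, 0.303 and 0.303, then 1.92, 0.640 and 0.763, then 7.30, 2.43 and 2.88 FPKM. Libraries with the Per2-/- label had 0.409, 0.980 and 2.39, then 0.206, 0.569 and 0.655, then 1.78, 1.85 and 15.0 FPKM. On day 4 replicate 3 of that label, at 15.0 FPKM, was the highest *C3* value of the 27. *C3* passed the test on day 4 in each genotype, with log2 1.73 in WT cells (adjusted p = 0.0485), 2.58 in Per1-/- cells (0.00506) and 1.78 under the Per2-/- label (0.0448). The last call was lost without replicate 1 or 2 of day 0 or replicate 3 of day 4, and with a pseudocount of 0.01, no filter, the compared groups alone or voom weights. In WT cells the *C3* call was lost without WT replicate 1 or 2 of day 0 or any WT replicate of day 4, and with a pseudocount of 1, no filter or voom weights.

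*C3ar1*, the receptor, followed the C1q chains in level across libraries, with smaller fold changes. WT libraries had 5.81, 3.93 and 3.49 FPKM at the start, 4.95, 4.44 and 5.15 by day 2 and 11, 8.06 and 9.86 by day 4. Per1-/- libraries had 2.80, 4.90 and 14.4, then 8.27, 7.09 and 13.2, then 22.5, 13.4 and 18 FPKM, and those labelled Per2-/- 9.13, 1.96 and 7.95, then 3.81, 2.57 and 3.79, then 8.80, 5.51 and 10.2. By day 4 it had risen by log2 1.13 in WT cells (adjusted p = 0.0483) and 1.57 in Per1-/- cells (0.0082), while 0.58 under the Per2-/- label (95% interval -0.44 to 1.60) did not pass. The WT call was lost when replicate 2 or 3 of day 0 or any replicate of day 4 was left out, and with no filter. The Per1-/- call was lost without Per1-/- day 0 replicate 1 and with the compared groups alone.

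Counted over the 9 genes, 4 rose from day 0 to day 2 in WT cells (*C1ra*, *C1s1*, *C4b* and *Serping1*) and 8 by day 4, all but *C1qa*. Among all tested genes 20.8% and 22.9% were called higher in these comparisons. In Per1-/- cells 5 of 9 rose by day 2 (*C1qb*, *C1qc*, *C1ra*, *C1s1* and *Serping1*, against 20.8% of all genes) and 9 of 9 by day 4 (against 22.6%). Under the Per2-/- label 0 of 9 passed by day 2, where 18.7% of all genes were called higher, and 5 of 9 by day 4, *C1ra*, *C1s1*, *C4b*, *C3* and *Serping1* (against 21.6%). An unadjusted p under 0.05 was reached by day 2 under that label by 3 of 9, against 59.96% of all genes. Between days 2 and 4, 0 of 9 were called in WT cells and 0 of 9 in Per1-/- cells (against 1.62% and 1.38% called higher), and 1 of 9 under the Per2-/- label (against 2.32%), *C3* with log2 2.83 (adjusted p = 0.0278). At an unadjusted p under 0.05 there were 1, 1 and 6 of 9, against 19.9%, 19.98% and 22.6% of all genes. All 3 libraries of day 4 lay above those of day 2 for 9 of 9 genes in WT cells, 6 of 9 in Per1-/- cells and 8 of 9 under the Per2-/- label, as for 14.7%, 14.1% and 13.3% of all genes. With the replicate number as a block, calls between these days were 4 in WT cells and 2 in Per1-/- cells, against 3.08% and 2.75% of all genes called higher, and the 5 calls of Per1-/- cells by day 2 became 7. None of the 9 genes was called lower in any comparison of days. Median log2 values by day 4 were 1.60, 2.34 and 1.02 for the C1q chains and 2.66, 2.58 and 2.49 for the other genes without *C3ar1*, in the order WT, Per1-/- and labelled Per2-/-, beside medians of -0.02, -0.00088 and 0.0045 for all tested genes.

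Some of these counts turned on 1 library. The WT count by day 4 was 5 without WT day 0 replicate 2 or WT day 4 replicate 3, and the Per1-/- count by day 2 was 1 without Per1-/- day 0 replicate 2. The count under the Per2-/- label by day 2 was 2 without replicate 2 or 3 of day 0 or replicate 1 of day 2, and that from day 2 to day 4 was 0 without any replicate of day 2 or replicate 3 of day 4. When FPKM were rescaled to a common sum, the median of all genes rose by log2 0.246 to 0.409 in the comparisons with day 0, and members then called numbered 5 and 9 in WT cells, 7 and 9 in Per1-/- cells and 3 and 6 under the Per2-/- label. On that scale 5485 genes were called higher and 1511 lower in WT cells by day 4, against 3414 and 3120 on the deposited scale, and 0 of the followed fold changes of the 9 genes turned direction.

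**Figure D2:**
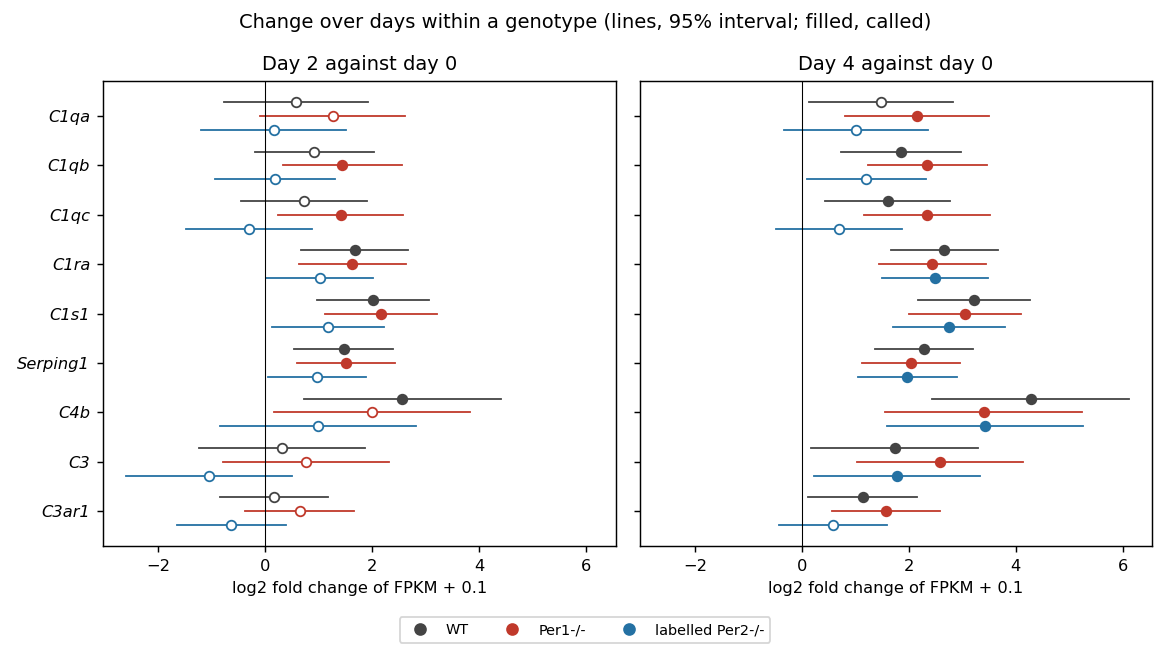
Log2 fold change of FPKM + 0.1 from day 0 to day 2 (left) and day 4 (right) for each gene and genotype, with 95% intervals of limma (3 libraries a group) and filled points for called genes. By day 4 all points lie above 0, from 0.58 for *C3ar1* under the Per2-/- label to 4.28 for *C4b* in WT cells.

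Between genotypes, every Per1-/- library lay above every other library of its day for the C1q chains and *C3ar1* on days 2 and 4. However, no difference was called in the main limma fit. By its own test of counts, the study reports complement system genes among those higher in Per1-/- cells than in both other genotypes. That test was not run here, so the lack of calls holds for the main limma fit only. On day 2 the lowest Per1-/- library was at 51.3 FPKM for *C1qa*, 94.6 for *C1qb*, 34.8 for *C1qc* and 7.09 for *C3ar1*, while the highest of the other 6 libraries was at 28.8, 59.0, 25.1 and 5.15. On day 4 the lowest Per1-/- values were 102, 172, 70.0 and 13.4 FPKM, against highest other values of 52.5, 123, 46.8 and 11. Thus 4 of the 9 genes had all 3 Per1-/- libraries above the 6 others on day 2 and 4 of 9 on day 4, where 3.07% and 4.92% of all tested genes did, and 0 of 9 on day 0, where 0.643% did. On day 0 the Per1-/- libraries had *C1qb* at 20.7, 28.6 and 122 FPKM, the first pair within the 10.2 to 53.5 FPKM of the other 6 libraries and replicate 3 above it.

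The differences did not pass the test across all genes. Against WT cells they were log2 1.29 for *C1qa*, 1.09 for *C1qb* and 1.11 for *C1qc* on day 2 (unadjusted p = 0.0605, 0.0557 and 0.0623, adjusted p = 0.999 for each by limma) and 1.28, 1.06 and 1.15 on day 4 (adjusted p = 0.835, 0.835 and 0.817). *C3ar1* differed by 0.91 and 0.87 (adjusted p = 0.999 and 0.888). Against libraries with the Per2-/- label the chains differed by 1.79 to 1.87 on day 2 and 1.67 to 1.91 on day 4, with 95% intervals above 0, as for *C1qb* on day 4 (3.18-fold, log2 1.67, 0.55 to 2.79, unadjusted p = 0.00544, adjusted p = 0.159). Adjusted p for the chains were 0.252 to 0.364 on day 2 and 0.159 to 0.186 on day 4. Libraries with the Per2-/- label were themselves below WT cells for the chains, though none was called. Their log2 differences from WT cells were -0.71 to -0.58 on day 2 and -0.63 to -0.59 on day 4. Of the macrophage markers, 0 of 20 had a positive difference from WT cells under that label on either day. With voom weights on the recovered fragments, or with the fit of the groups compared alone, all 3 chains passed against libraries with the Per2-/- label on day 4. Macrophage markers again moved with the chains, with positive differences between Per1-/- and WT cells for 20 of 20 markers on days 2 and 4. Their median log2 was 0.93 and 0.86 (0 of 20 called), beside -0.014 and -0.0099 for all tested genes. Their part in the difference was not tested, and their summed level was 1134 to 2128 FPKM in Per1-/- libraries on day 4, 598 to 1079 in WT and 457 to 821 in those labelled Per2-/-.

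For the proteases, their inhibitor and *C4b* the differences from WT cells on day 4 were near 0 with wide intervals. They were log2 0.02 for *C1s1* (95% interval -1.02 to 1.07), -0.0023 for *C1ra* (-1.0 to 1.0), 0.25 for *Serping1* (-0.67 to 1.17) and 0.04 for *C4b* (-1.80 to 1.88). These intervals reach or come close to the values of the C1q chains, so they do not show that the genes behaved differently from C1q or were alike between genotypes. *C3* differed by 1.08 (-0.47 to 2.63) on day 4, with the Per1-/- libraries above the WT libraries and replicate 1 far above the others. Of all 9 genes, 0 were called in any of the 9 comparisons of genotypes. The shares of all tested genes called in either direction were 0.0134%, 0.0067% and 0.0268% for Per1-/- against WT cells on days 0, 2 and 4, and 0.0201%, 0.0737% and 0.556% for Per1-/- cells against libraries with the Per2-/- label. For libraries with the Per2-/- label against WT cells they were 0.0067%, 0.0268% and 0.0067%. At an unadjusted p under 0.05, 4 of 9 genes had a difference between Per1-/- cells and libraries with the Per2-/- label on day 2 and 4 of 9 on day 4, the C1q chains and *C3ar1* each time, against 8.22% and 13.2% of all genes, and 0 of 9 in the other 7 comparisons.

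**Figure D3:**
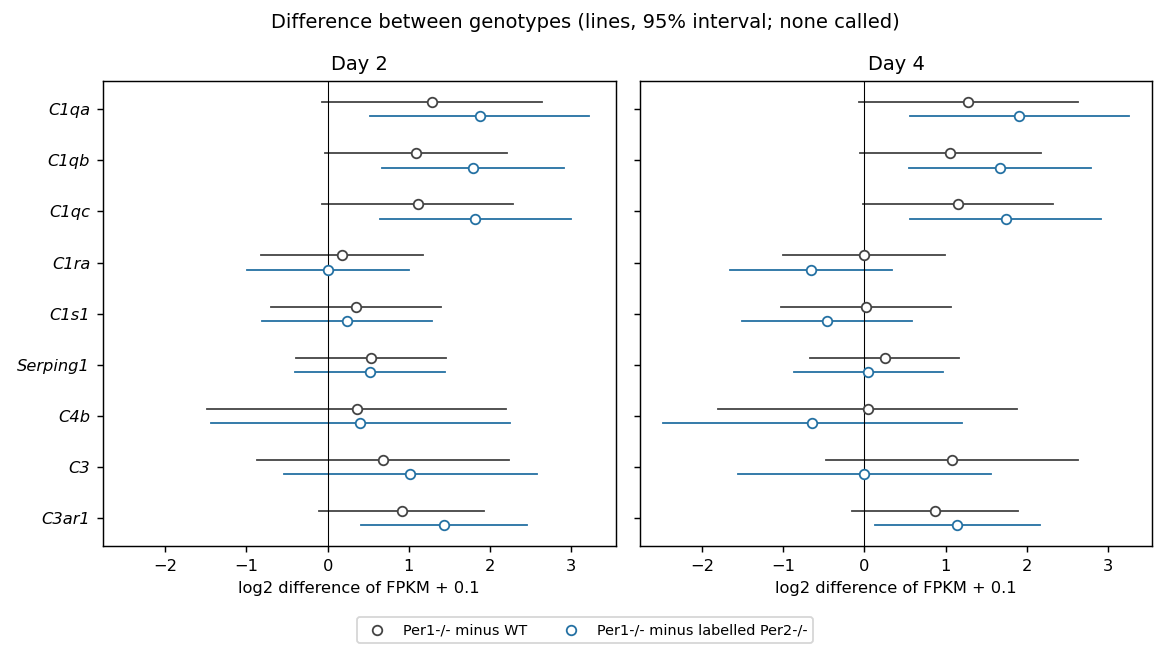
Log2 difference of FPKM + 0.1 between Per1-/- cells and WT cells (grey) or libraries with the Per2-/- label (blue) on day 2 (left) and day 4 (right), with 95% intervals of limma. The C1q chains lie between 1.06 and 1.91, and *C1ra*, *C1s1* and *Serping1* between -0.66 and 0.54. These ranges leave out *C4b*, *C3ar1* and *C3*, and *C3* was at 1.08 against WT cells on day 4, within the range of the chains.

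Whether the change over days itself differed between genotypes was asked with an interaction contrast. For the change of the C1q chains from day 0 to day 4, Per1-/- minus WT cells was log2 0.49 to 0.73, with 95% intervals from -1.23 to 2.59 for *C1qa* and from -0.93 to 2.39 for *C1qc*. Against libraries with the Per2-/- label the difference in change was 1.14 for *C1qa* and *C1qb* and 1.64 for *C1qc* (-0.02 to 3.30, adjusted p = 0.832). None of the 9 genes was called in any of the 6 interaction contrasts, where 0 of all 14932 genes were (0%). At an unadjusted p under 0.05 there was 1 of 9, *C1qc* in the change to day 2 of Per1-/- cells against libraries with the Per2-/- label, where 4.49% of all genes had one. That the C1q chains passed by day 4 in WT and Per1-/- cells and not under the Per2-/- label is therefore not a shown difference between the genotypes.

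Across libraries the 9 genes fell into 2 sets by likeness. After the mean of each day was removed, Pearson's r over the 27 libraries was 0.957 to 0.987 among the C1q chains and 0.954 to 0.968 between each chain and *C3ar1*. Among *C1ra*, *C1s1*, *C4b* and *Serping1* it was 0.665 to 0.955, highest for *C1ra* with *C1s1*, and *C3* joined this set at 0.739 to 0.795. Between the C1q chains and *C1ra*, *C1s1*, *C4b* or *Serping1* r was -0.297 to 0.026, and with *C3* 0.032 to 0.051. Within single days of 9 libraries, the mean of the chains had r of -0.292, 0.068 and -0.285 with *C1s1* on days 0, 2 and 4, and 0.986, 0.991 and 0.918 with *C3ar1*. With *Serping1* it was -0.376, 0.278 and 0.312 and with *C3* -0.374, 0.412 and 0.270, so the sign for these genes changed between days. Within the second set *Serping1* had r of 0.874, 0.623 and 0.246 with *C1ra* on days 0, 2 and 4. Its r with *C1s1* was 0.861, 0.692 and 0.462, and with *C4b* 0.820, 0.745 and 0.498. On day 4 *Serping1* was thus no closer to *C1ra* than to the chain mean. Spearman's rho of the chain mean over the 27 libraries was -0.314 with *C1s1* and 0.954 with *C3ar1*. Without the 2 libraries farthest from the median of the chain mean, Pearson's r was -0.040 with *C1s1* and 0.958 with *C3ar1*. These are descriptions over 36 pairs of genes, and the 27 libraries share genotypes and, within a library, depth and scaling.

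**Figure D4:**
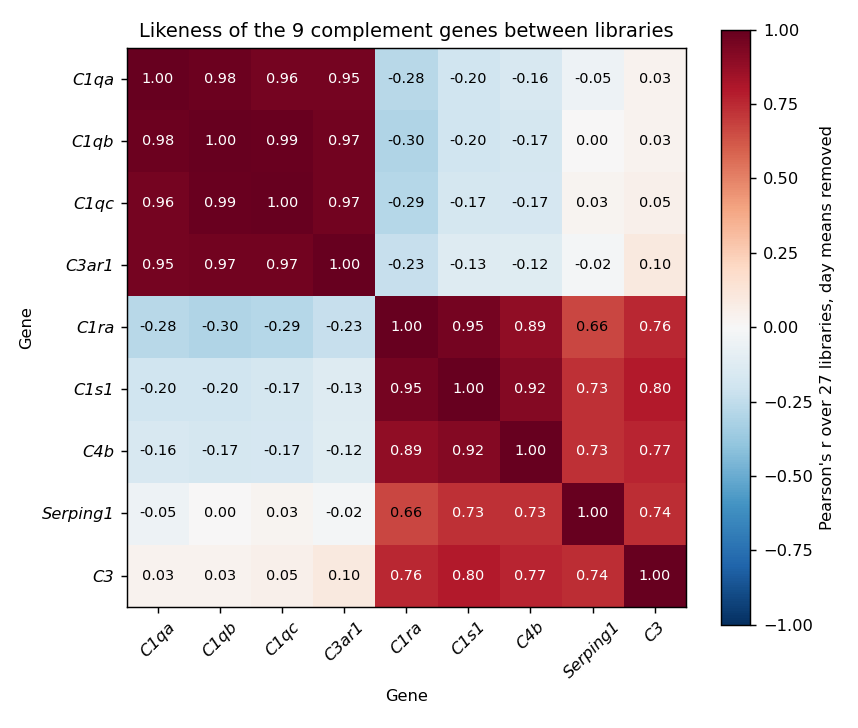
Pearson's r between each pair of the 9 genes over 27 libraries, on log2(FPKM + 0.1) with the mean of each day removed. The C1q chains and *C3ar1* form a block of 0.95 or more, *C1ra*, *C1s1*, *C4b*, *Serping1* and *C3* a looser block, and values between the blocks lie from -0.30 to 0.10.

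On day 0 the sets went opposite ways in some single libraries and not in others. Per1-/- replicate 3 had the highest *C1qb* of day 0, 122 FPKM, with *C1s1* at 2.03 FPKM, and Per1-/- replicate 1 the reverse, 20.7 against 7.30. Among libraries with the Per2-/- label, replicate 1 had 53.5 FPKM of *C1qb* and 2.25 of *C1s1*, and replicate 2 had 10.2 and 4.85. The remaining libraries of these genotypes were not opposed in this way. Per1-/- replicate 2 had 28.6 FPKM of *C1qb* and the lowest *C1s1* of day 0, 1.33 FPKM. Replicate 3 of the Per2-/- label had 43.7 FPKM of *C1qb* and the highest *C1s1* of day 0, 9.0 FPKM. The mean of the 3 chains divided by the mean of *C1ra* and *C1s1* accordingly ran from 1.23 to 38.2 on day 0 over the Per1-/- and labelled Per2-/- libraries, and was 5.29 to 12.95 in WT cells. On day 2 this ratio was 3.48 to 10.2 in Per1-/- cells, 2.07 to 5.20 in WT cells and 1.17 to 3.44 under the Per2-/- label. The WT range of that day overlapped with both others. By day 4 the ratio had narrowed within each genotype, to 5.98 to 7.97 in Per1-/- cells, 2.62 to 4.00 in WT cells and 1.19 to 1.76 under the Per2-/- label, which did not overlap. The ratio is given with no test, since a score over the members gets none.

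Within C1q, the proportion of the chains varied far less than their level. The sum of the 3 chains ran from 19.1 to 486 FPKM over the 27 libraries, whereas *C1qb* over *C1qc* stayed between 1.87 and 3.02 (mean 2.56, coefficient of variation 12.2%) and *C1qb* over *C1qa* between 1.23 and 2.81 (mean 1.90, 18%). The largest departures were on day 0, where *C1qa* over *C1qc* was as low as 0.687 in a library labelled Per2-/- whose *C1qa* rested on the lowest fragment count of the gene, 71. On day 4 *C1qb* over *C1qc* was 2.78 ± 0.211 in WT cells, 2.60 ± 0.122 in Per1-/- cells and 2.74 ± 0.0291 under the Per2-/- label (SD, n = 3). *C1s1* over *C1ra* went from 0.931 ± 0.204 on day 0 to 1.36 ± 0.198 on day 4 in WT cells and from 0.898 ± 0.0693 to 1.37 ± 0.0667 in Per1-/- cells.

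The genes most like the mean of the C1q chains by the same day-centred r over 27 libraries were *Adgre1* (0.99), *Mpeg1* (0.98), *Ms4a7* (0.98), *Csf1r* (0.98), *Pik3cg* (0.97), *Inpp5d* (0.97), *Il10ra* (0.97), *Arhgap30* (0.97), *Dock2* (0.97) and *Mrc1* (0.97). *Adgre1* encodes the macrophage surface marker F4/80, *Csf1r* the receptor for macrophage colony-stimulating factor and *Mrc1* the mannose receptor. For *C3ar1* they were *Inpp5d* (0.98), *Cd68* (0.98), a lysosomal protein of macrophages, and *Lcp1* (0.98). The other genes had other neighbours. *C1s1* was most like *Mmp2* (0.90), a matrix metalloproteinase, *Fcgrt* (0.87) and *Gstt1* (0.86), and *C1ra* most like *Gstt1* (0.90), *Fam13c* (0.88) and *Fcgrt* (0.88). *C4b* was most like *Islr* (0.90), *Mmp2* (0.89) and *Sox9* (0.88), *C3* most like *Sox9* (0.88), *Steap4* (0.81) and *Emb* (0.78), and *Serping1* most like *Medag* (0.88), *Ccl11* (0.88) and *A530020G20Rik* (0.87).

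Set beside the 20 macrophage markers, of which none is a member, the mean of the C1q chains had a day-centred r of 0.985 (Spearman's rho 0.965, and 0.981 without the 2 farthest libraries), while *C1s1* had -0.146. On the log2(FPKM + 0.1) scale the chain mean stood 1.82 to 2.22 above the marker mean in WT cells at the start, 1.70 to 1.84 by day 2 and 1.61 to 1.70 by day 4. In Per1-/- cells it stood 1.84 to 2.27, 1.82 to 2.10 and 1.88 to 2.06 above, and under the Per2-/- label 1.36 to 2.02, 1.38 to 1.68 and 1.28 to 1.62. On day 4 the Per1-/- range was thus above both others. *C3ar1* stood close to the marker mean on day 0, with a difference of -0.21 to 0.19 over the 9 libraries, and a difference of -1.06 to -0.57 in the libraries of days 2 and 4, with no overlap. These distances are descriptions of chosen lists and carry no test.

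**Figure D5:**
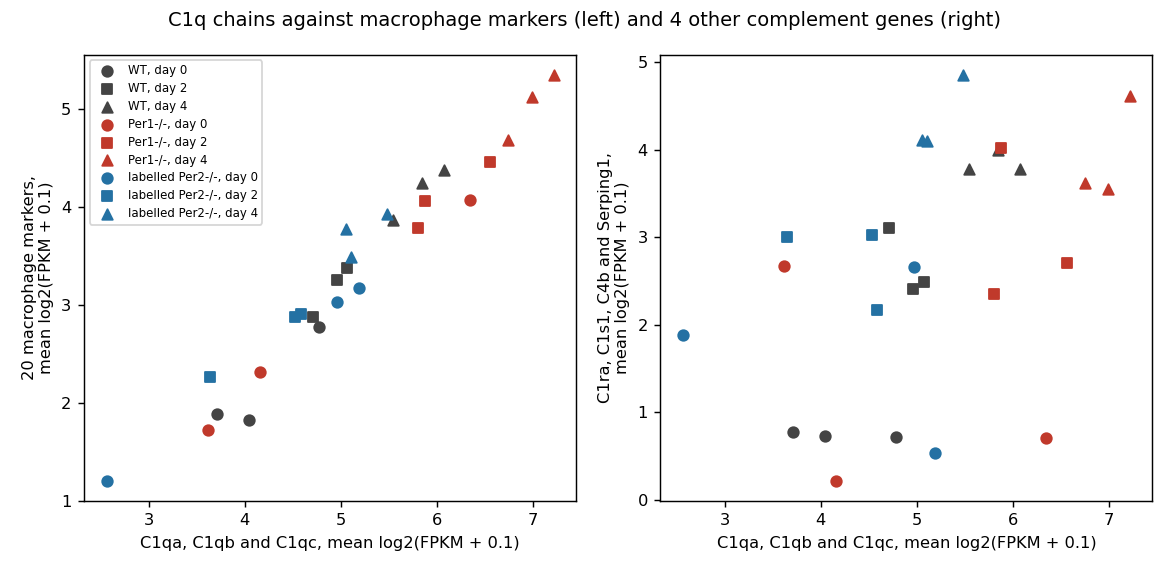
Mean log2(FPKM + 0.1) of the 3 C1q chains in each of 27 libraries (x axes) against that of 20 macrophage markers (left) and of *C1ra*, *C1s1*, *C4b* and *Serping1* (right). On the left the libraries lie along a line (day-centred r 0.985), and on the right libraries of a day spread widely over the C1q axis.

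The wider complement list held 46 further genes, 20 of which passed the filter. By day 4, 11 of 20 rose and 3 of 20 fell in WT cells, 8 rose and 3 fell in Per1-/- cells, and 7 rose and 3 fell under the Per2-/- label, with medians of log2 1.29, 0.81 and 0.49. Of all tested genes 22.9%, 22.6% and 21.6% rose and 20.9%, 20.4% and 18.8% fell. Among the regulators, *Susd4* rose by day 4 in all 3 genotypes (log2 2.78 in WT cells, from 0.139 ± 0.00306 to 1.55 ± 0.240 FPKM, SD, n = 3). *Cd55*, which encodes decay-accelerating factor, and *Clu*, which encodes clusterin, rose in WT cells (1.41 and 1.27) and under the Per2-/- label (1.52 and 1.47). The membrane regulator *Cd59a*, which guards against the terminal pore, fell by 1.06 on the log2 scale in WT cells and by 0.95 and 1.11 in the others. Of the receptors, *Itgam* and *Itgb2*, the chains of complement receptor 3, rose in WT cells by 1.89 and 1.49 and in Per1-/- cells by 1.71 and 1.59, and under the Per2-/- label *Itgam* rose by 1.27. *Cd93* rose in WT (1.34) and Per1-/- cells (1.85).

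Of the initiators on the list, *Masp1*, a protease of the lectin pathway, fell by 1.90 on the log2 scale in WT cells, from 18.2 ± 8.30 to 4.72 ± 1.68 FPKM (SD, n = 3), and by 1.91 and 1.93 in the others. *C1qbp*, which encodes a mostly mitochondrial protein that can bind C1q, fell by 1.53 in WT cells, from 66.4 ± 6.98 to 23.0 ± 1.80 FPKM, and by 1.63 and 1.51 in the others. *Colec11*, a soluble lectin, rose in WT cells (2.23) and Per1-/- cells (1.37) by day 4, *Fcna*, a ficolin, was called in WT cells (1.54), and *Colec12* fell by 0.63 by day 2 in WT cells and by 0.78 under the Per2-/- label. *Cfp*, which encodes properdin, and *C8g* rose by day 4 in all 3 genotypes (1.32 and 1.53 in WT cells). The other genes of the terminal pathway did not pass the filter, with *C8a* at 0 in every library, *C9*, *C8b*, *C6* and *Hc* at no more than 0.134, 0.0397, 0.142 and 0.0398 FPKM and *C7* at no more than 1.07 FPKM, and the alternative pathway protease gene *Cfb* reached no more than 0.292 FPKM. *C2*, the partner of C4 in the classical convertase, stayed low, at most 0.766 FPKM, and was not called by day 4 in any genotype. Between genotypes 0 of the 20 genes were called on any day, beside the shares of all genes given for the 9, and at an unadjusted p under 0.05 by limma there were at most 9 of 20 (against 8.22% of all genes), for Per1-/- cells against libraries with the Per2-/- label on day 2.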

How the data were processed

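The authors deposited 1 table of FPKM with 27 libraries. According to the study's methods, poly(A) RNA was made into libraries that do not mark strand, paired-end reads were aligned to GRCm38 with HISAT2 2.0.5 and counted per gene (Ensembl annotation) with featureCounts 1.5.0-p3, so reads of overlapping antisense genes cannot be told apart. The FPKM included a size factor per library, and with the deposited gene lengths 100% of values gave whole fragments (tolerance 0.01). The authors tested counts with DESeq2, which was not run here. Column names matched the sample titles.

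Log2(FPKM + 0.1) was taken for the 14932 genes whose mean reached 0.5 FPKM and fitted with limma 3.58.1 in R 4.3.3 (9 groups, trended eBayes), and p-values were adjusted by Benjamini-Hochberg over all tested genes. A gene was called when the adjusted p was 0.05 or less and the log2 fold change 0.58 or more in either direction. Fold changes are on this log2 scale and understate changes of low genes. An exact permutation test of 3 against 3 cannot go below a two-sided p of 0.1, so none was run. The labels name biological replicates but not separate cultures or litters, so p-values measure the spread between these libraries. Same-numbered libraries deviated together in all 3 pairs (r over 0.1) for day 4 against day 2 in WT cells (0.127 to 0.196) and Per1-/- cells (0.140 to 0.284). They also did so for day 2 against day 0 in Per1-/- cells (0.150 to 0.294). The main fit held no pairing. A block by replicate number was run for every comparison as an alternative. The numbers are in the labels, but the reason to pair libraries by them came from the data.

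Genes named are the 9 members, listed complement genes that were called (apart from what is not reported here), and the genes most like the members (10 for the C1q mean, 3 for each of the others). The absent or low complement genes *C2*, *C8a*, *C8b*, *C9*, *C6*, *C7*, *Hc* and *Cfb* were chosen after their values were seen. The members and lists were chosen with earlier results of these data known. Promoter windows are from RefSeq (GRCm38.p6).

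Alternatives were other pseudocounts, filters, scalings, a replicate block, the compared groups alone, voom weights on recovered fragments, no minimum fold change, and each library left out. On simulated data for day 2 against day 0 in WT cells (14773 genes run), 68.3% of 199 genes changed by log2 1 were recovered with 3 false calls. For log2 2 (14789 genes run) it was 84.0% of 200 genes with 5 false calls, and with no change 0 calls. Tables and figures were made with pandas 2.3.3 and matplotlib 3.10.9 (Python 3.11.15, numpy 2.4.6).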

Additional observations from a re-analysis of the deposited data

How the results depend on the processing

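Of 47 member fold changes followed over 799 alternative values, 745 kept their direction and their side of the threshold, 48 kept the direction and lost the call, 6 kept it and gained the call, and 0 changed direction. Depth limits mostly *C4b* and *C3* on day 0, and with 3 libraries a group the intervals of the genotype differences are wide. The counts of members called that moved beyond 1.5 times were as follows, and the cause was not tested. From day 0 to day 2 the 5 calls in Per1-/- cells became 3 with no filter and 1 with the compared groups alone, and the 0 under the Per2-/- label became 1 with a pseudocount of 1, a mean of at least 1 FPKM, size factors computed again or voom weights, 2 with upper-quartile scaling and 3 with a common sum. From day 2 to day 4 the 0 in WT cells became 4 with the compared groups alone, and the 1 under the Per2-/- label became 4 with a pseudocount of 1 or the compared groups alone and 3 with voom weights. On day 4 the 0 between Per1-/- cells and libraries with the Per2-/- label became 3 with the compared groups alone or voom weights.

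With each library left out in turn, calls ranged from 3 to 4 and from 5 to 8 in WT cells by days 2 and 4, from 1 to 7 and from 8 to 9 in Per1-/- cells, and from 0 to 2 and from 4 to 6 under the Per2-/- label. From day 2 to day 4 they ranged from 0 to 1 in the latter and stayed at 0 in the others, as did all genotype and interaction counts. A further setting, chosen after seeing the data, left out all 3 Per1-/- replicate 1 libraries, and gave 3 calls by day 2 and 4 from day 2 to day 4 under the Per2-/- label. The calls of *C1qa* and *C3ar1* by day 4 and of *C1qb* and *C1qc* by day 2 in Per1-/- cells were lost there.

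A replicate block gave 4 calls from day 2 to day 4 in WT cells, 2 in Per1-/- cells and 6 under the Per2-/- label, and 4 by day 2 in the latter. The other counts moved by no more than 1.5 times, to 7 in Per1-/- cells by day 2 and to 9 and 6 by day 4 in WT cells and under the Per2-/- label. Same-numbered libraries of a genotype on other days had correlated deviations (r from -0.017 to 0.294, over 0.1 in 14 of 27 pairs), and 26 of 27 libraries correlated best with their own number, a hint from the data and not the design. Between genotypes on a day, r was -0.256 to 0.192 for same-numbered libraries. For libraries with other numbers it was -0.230 to 0.338, over 0.1 in 10 of 54 pairs. Among same-numbered libraries, only in the 3 comparisons of days named under the processing did all pairs exceed 0.1. The main fit used the numbers as names only, and the block was an alternative for every comparison.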
